A study of Mus musculus with 9 samples.

Results

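The comparison described here set activated mouse hepatic stellate cells that had received an siRNA against Cav1 (3 arrays) against quiescent hepatic stellate cells (3 arrays), and asked which changes of activation were still present when Cav1 RNA was reduced. These were 6 of the 9 arrays of the study. They were chosen by their labels alone. The other 3 arrays, activated cells with a negative control siRNA, defined the activation changes. Cells came from C57BL/6 mice aged 10 weeks, by collagenase perfusion of the liver. Activated cells had grown for 7 days on hard culture plates before an overnight transfection with 5 nM siRNA in Lipo3000, so the lipid reagent was shared by both activated groups and not given to quiescent cells, whose treatment is labelled None and whose harvest time is not given. The titles number the Cav1 siRNA arrays 1 to 3 as replicates of the same siRNA, and the numbers do not refer to Cav2 or Cav3. Nothing in the labels says whether the arrays of a group came from separate mice or cultures, so p-values measure the spread between these samples, which may be technical.

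Hepatic stellate cells are the pericytes of the liver sinusoid. In the healthy liver they are quiescent and store vitamin A as retinyl esters in lipid droplets. After injury, or on stiff plastic, they lose these stores, divide and become contractile myofibroblasts that secrete collagen, a process called activation. Caveolin-1, the product of Cav1, is the main structural protein of caveolae, small flask-shaped pits of the plasma membrane, whose coat is built from cavin proteins.

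The probes for Cav1, for smooth muscle actin (Acta2) and for the protease inhibitor Timp1 were checked first, because these genes mark the targeted transcript and the activated state. The sequences of a coding-strand probe for each are shown to fix which part of the transcript was read; each is 60 bases long, printed 5′ to 3′ in lower case with no part marked, and each reads through without a stop codon in at least 1 frame. The Cav1 probe lies on the plus strand at chr6:17258018-17289144, the Acta2 probe on the minus strand at chr19:34322995-34326249 and the Timp1 probe on the plus strand at chrX:20451675-20451733 (mm9, from the array files). The Cav1 and Acta2 spans are far longer than the probe, so both probes cross an exon junction.
Cav1: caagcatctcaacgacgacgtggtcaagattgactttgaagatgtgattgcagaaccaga
Acta2: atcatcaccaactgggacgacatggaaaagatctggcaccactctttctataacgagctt
Timp1: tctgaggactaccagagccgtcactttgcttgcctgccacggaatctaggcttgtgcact

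Before any result, the quiescent arrays carried strong signal of other liver cells. Signals are given throughout as log2 of the scanner's processed signal minus the 75th percentile of the same array, so 0 is that percentile. Albumin (Alb), the main hepatocyte plasma protein, read 6.99, 6.61 and 6.63 on the quiescent arrays and was not well above background on any Cav1 siRNA array. The Kupffer cell lectin Clec4f read 6.33, 5.38 and 5.78, the sinusoidal endothelial lectin Clec4g 7.47, 8.14 and 7.51, and alpha globin (Hba-a1) 8.02, 7.67 and 7.40 on the same arrays. The mean signal of 36 hepatocyte markers ranged from 5.16 to 5.60 on quiescent arrays and from -5.58 to -5.43 on Cav1 siRNA arrays. The mean of 26 sinusoidal endothelial markers ranged from 3.26 to 4.17 against -5.12 to -4.91, and that of 27 Kupffer cell and macrophage markers from 3.26 to 3.82 against -2.64 to -2.57. Stellate cell RNA was present too: Lrat, the enzyme that esterifies vitamin A, read 0.48, 1.30 and -0.13 on the quiescent arrays. Of the other defining stellate markers, Reln read -3.14, -2.11 and -2.14 there by its brightest probe, and its other probes ranged from -4.85 to 2.76. Des was not tested, as no probe passed the filter on dim signal. In RNA from a cell population, fewer cells of a type and less RNA per cell cannot be told apart. The part of these other cells in the falls and rises given below was not tested.

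**Figure D1:**
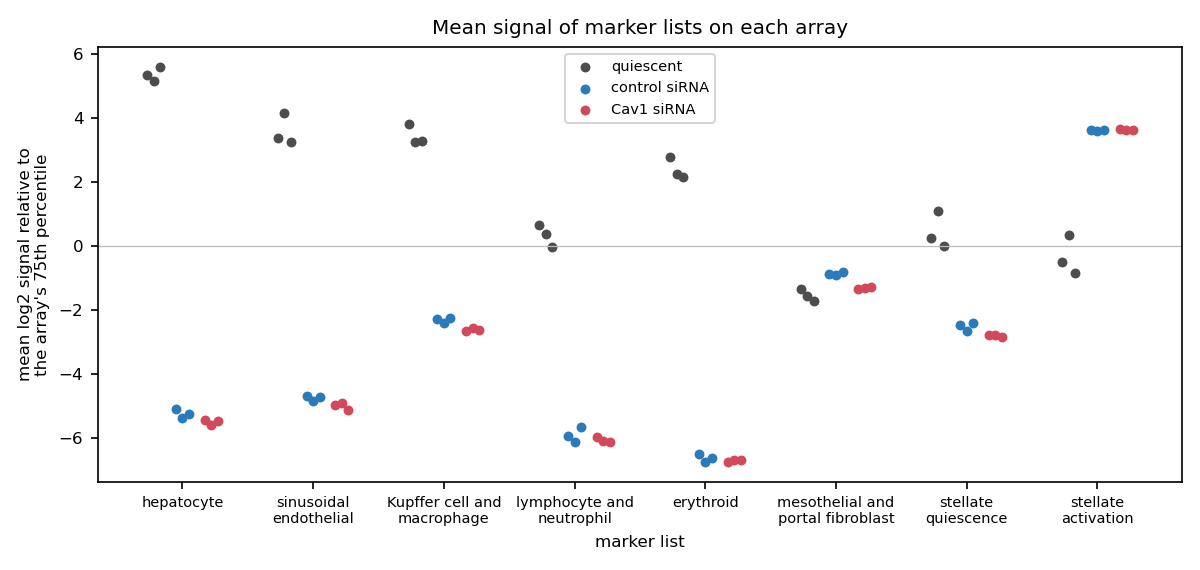
Mean log2 signal of the genes tested in 8 marker lists (vertical axis, relative to each array's 75th percentile) on each of the 9 arrays, coloured by group, n = 3 per group. Hepatocyte, endothelial, Kupffer cell, lymphocyte and erythroid lists are high only on the quiescent arrays, while the stellate activation list is higher on the activated than on the quiescent arrays, reaching 3.66.

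The share of probes well above background was 56.0% ± 3.91 on quiescent, 65.2% ± 3.57 on control siRNA and 62.4% ± 2.06 on Cav1 siRNA arrays (SD, n = 3 each). The spread between replicates was larger in quiescent cells, with a median gene SD of 0.354 log2 against 0.119 with the Cav1 siRNA. The fit uses 1 pooled spread per gene, which understates the error of comparisons with quiescent cells and overstates that between the activated groups. A fit of only the 6 arrays compared called 15231 genes against quiescent cells, and 13820 activation calls remained there (93.5%). The quiescent arrays and the first control siRNA array were on slide 1, and the other arrays on slide 2. No slide held both quiescent and Cav1 siRNA arrays, so slide and group cannot be told apart within the main comparison. With slide as a block, entered as a fixed term, 10141 genes passed in place of the 16210 given below. That fit links the quiescent to the Cav1 siRNA arrays only through the first control siRNA array, which shared the quiescent slide.

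Cav1 itself was still above quiescent cells after the siRNA, and below the activated control. Its brightest probe read -4.87, -5.65 and -5.84 on the quiescent arrays, -1.34, -1.12 and -1.09 with the control siRNA, and -2.88, -2.89 and -3.07 with the Cav1 siRNA. The 3 groups did not overlap. Over all genes tested, the Cav1 siRNA and control siRNA arrays did not overlap at 22.6%. The quiescent signal of Cav1 was well above background on 1 of 3 arrays, so the size of the rise from quiescence is loosely measured. Cav1 rose by 2.51 log2 (SE 0.24, limma adjusted p = 1.5e-05) against quiescent cells, beside 4.27 with the control siRNA. Against the control siRNA it stood at 29.4% (95% confidence interval 20.2 to 42.9), a difference of -1.76 log2 with an unadjusted limma p of 4.8e-05 and an adjusted p of 0.145. Over the alternatives tried, this direct adjusted p passed the threshold in 5 of 23, among them the fit of the 6 activated arrays alone (0.041). Within slide 2 the difference was -1.84. Normexp background correction shrank the rise from quiescence to 0.38 and, with quantile normalization, to 0.87, and the call held in each. The junction probe printed above gave 2.87 against quiescent cells and -1.55 against the control siRNA.

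Most of the expression change from quiescence to the activated state was present with Cav1 reduced. Of 23965 genes tested, 16210 (67.6%) differed between Cav1 siRNA and quiescent cells at a limma adjusted p under 0.05, 9687 (40.4%) higher and 6523 (27.2%) lower. At least 2-fold changes numbered 6625 higher (27.6%) and 4787 lower (20%). In both directions 11412 calls (47.6%) were at least 2-fold, and for 17187 genes (71.7%) the arrays of the groups did not overlap. These shares are the background against which the gene groups below are read. The higher share of calls, 59.8%, depends on scaling: it was 45.1% after normexp background correction with the same percentile, 46.2% with no filter on dim probes and 68.4% with median scaling. The median change of all genes was 0.27, which moved by -0.42 to 0.26 under the other scalings.

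Control siRNA cells differed from quiescent cells at 16328 genes (68.1%), the activation calls, 10089 of them higher (42.1%) and 6239 lower (26%). The groups did not overlap at 69.8% of genes. Both comparisons use the same quiescent arrays, so their calls are not independent. With the Cav1 siRNA, 15126 activation calls (92.6%) were called in the same direction, 9172 higher and 5954 lower. A further 1200 (7.35%) were not called, and 2 were called in the opposite direction. Of 11485 activation calls of at least 2-fold (47.9% of genes), 11059 (96.3%) were called the same way and 10569 (92%) were again at least 2-fold. The share grew with size: 4067 of 4843 activation calls under 2-fold (84%), 5149 of 5548 from 2-fold to 4-fold (92.8%), 3338 of 3364 from 4-fold to 16-fold (99.2%) and 2572 of 2573 over 16-fold. The median absolute change over the activation calls of at least 2-fold was 2.06 log2 with the control siRNA and 2.05 with the Cav1 siRNA. With slide as a block 10034 activation calls remained, 79.9% of that fit's own.

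**Figure D2:**
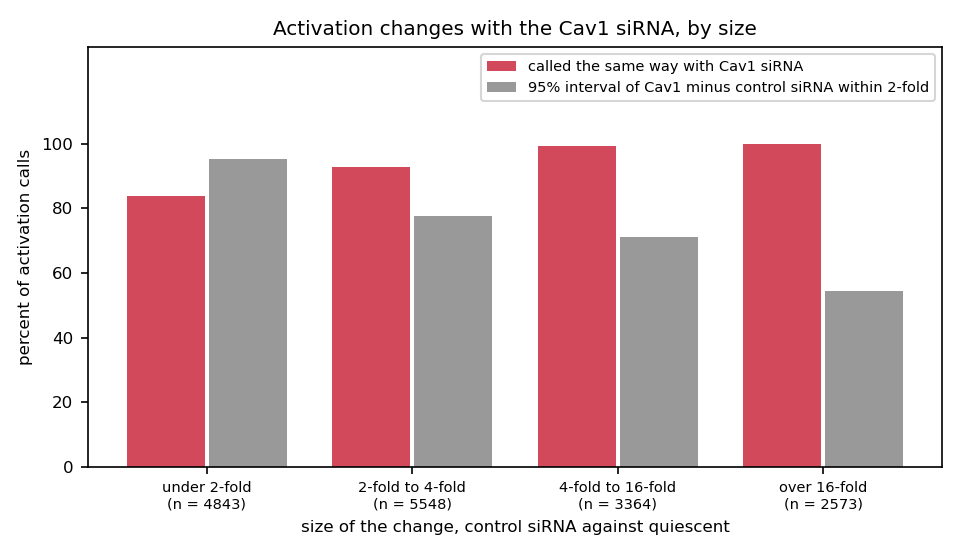
Percent of activation calls (vertical axis) that were called in the same direction with the Cav1 siRNA, and percent whose 95% confidence interval for Cav1 siRNA minus control siRNA lay within 2-fold, by size of the activation change (horizontal axis, number of genes in brackets). The first share rises from 84% to 2572 of 2573 genes with size, and the second falls from 95.3% to 54.3%.

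The activation genes proper rose nearly as one block. Of 34 stellate activation genes tested, 29 rose and 3 fell with the Cav1 siRNA, and the same 32 calls were made the same way with the control siRNA. The median change of the list was 4.13, beside 0.27 over all genes and 4.30 for the list with the control siRNA. Taken gene by gene, the median difference from the control siRNA was 0.08, with 14 of 34 genes lower, beside 56.8% of all genes. The genes that fell were Lum, a small collagen-binding proteoglycan (-3.24), Mfap5, a microfibril protein (-2.80), and Tgfb1 (-1.32). Postn and Thbs2 did not pass.

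Timp1, which blocks matrix-degrading metalloproteases, read -2.15, -2.11 and -2.48 on the quiescent arrays and 6.64, 6.60 and 6.67 with the Cav1 siRNA. The groups lay far apart, and the control siRNA arrays, at 6.61, 6.34 and 6.50, overlapped the Cav1 siRNA arrays. The change from quiescence was 8.88 log2 (SE 0.15, limma adjusted p = 7.5e-10). Acta2, the actin isoform that marks the myofibroblast, read -0.19, -0.99 and -1.66 in quiescent cells and 7.62, 7.61 and 7.63 with the Cav1 siRNA. The rise was 8.57 log2 (SE 0.31, limma adjusted p = 2.7e-08), and the control siRNA arrays lay slightly lower at 7.47, 7.39 and 7.40. Probes for Acta2 disagreed on size: the other 3 gave 2.25, 9.37 and 1.35 against quiescent cells, the first of these being the coding probe printed above.

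Lox, which cross-links collagen, read -6.10, -3.52 and -5.30 in quiescent cells, where 1 of 3 arrays was above background, and 5.44, 5.18 and 5.34 with the Cav1 siRNA. Grem1, a secreted BMP antagonist, was not well above background on any quiescent array and was at least 1685-fold higher with the Cav1 siRNA. Such bounds set the group mean against the lowest signal that counted as well above background. Pdgfrb, the receptor through which PDGF drives stellate cell division, rose by 4.49 (SE 0.50), from a quiescent range of -1.42 to 0.97. Spp1 (osteopontin) rose by 3.19 (SE 0.37). The largest rises measured in both groups were those of the annexin Anxa8 (9.52), Timp1, the adenylate kinase Ak1 (8.79), the TGF-beta binding protein Ltbp2 (8.59), Acta2, the collagen Col8a1 (8.46), the fibulin Fbln2 (8.20) and Epdr1 (8.06). For each of these 8 genes the difference from the control siRNA lay between -0.22 and 0.20.

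**Figure D3:**
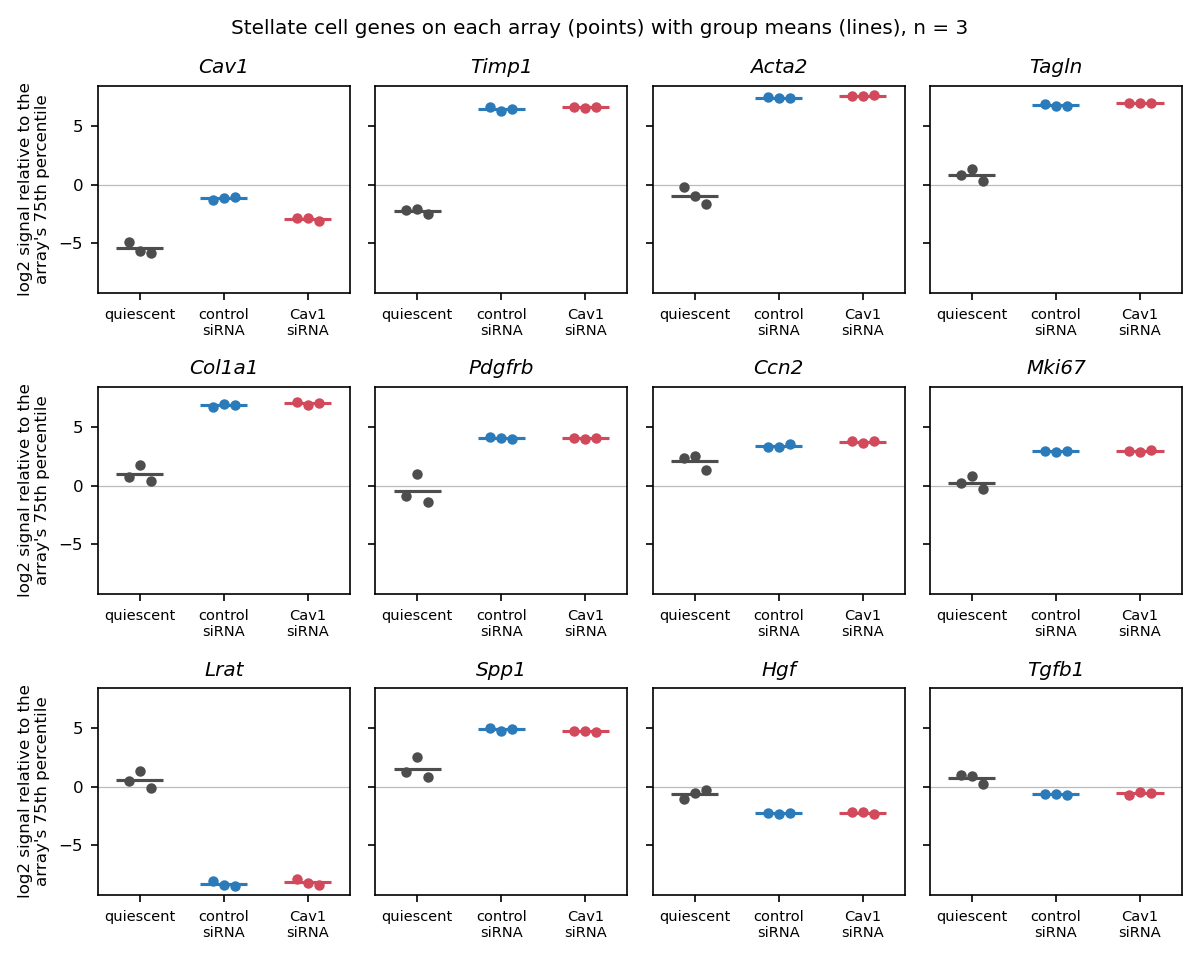
Log2 signal relative to the array's 75th percentile (vertical axis) of 12 stellate cell genes on each array (points) with group means (lines), n = 3 per group. Cav1 is the gene of this panel whose Cav1 siRNA arrays lie clearly apart from the control siRNA arrays, at -2.88, -2.89 and -3.07 against -1.34, -1.12 and -1.09.

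Genes of the contractile apparatus rose with Cav1 reduced. Of 34 tested, 29 rose and 1 fell, with a median of 2.42 (2.24 with the control siRNA). Tagln, a calponin-family actin binder, read 0.80, 1.34 and 0.33 in quiescent cells and 6.94, 7.01 and 6.95 with the Cav1 siRNA, a change of 6.14 (SE 0.23). Flnc, a filamin that cross-links actin, rose by 7.94, calponin Cnn1 by 5.32, the myosin light chain Myl9 by 3.78 and vinculin (Vcl), which links integrins to actin, by 2.89. The member that fell was Synpo2 (-1.14), called here and not with the control siRNA, a call lost with slide as a block and with normexp and quantiles. The cytoplasmic actin Actb (0.09), Smtn, Tln1 and Tpm3 did not pass. Of 30 targets of the mechanosensitive factors YAP, TAZ and SRF, 25 rose and 4 fell. Their median was 2.57, against 2.69 with the control siRNA. Taken gene by gene, the median difference from the control siRNA was 0.11, with 10 of 30 genes lower, beside 56.8% of all genes. Ccn2, the secreted matricellular target of YAP, read 2.40, 2.52 and 1.37 in quiescent cells, 3.31, 3.30 and 3.56 with the control siRNA and 3.81, 3.64 and 3.79 with the Cav1 siRNA. The 3 groups did not overlap, and the rise was 1.65 (SE 0.28, limma adjusted p = 0.00065), beside 1.30 with the control siRNA. Yap1 itself rose by 0.63 (SE 0.15). With slide as a block neither Ccn2 (limma adjusted p = 0.052) nor Yap1 (0.13) was called. The members of this list that fell were Fhl1 (-2.52), Egr3 (-1.78, not called with slide as a block), Nuak2 (-1.57) and Dlc1 (-0.79).

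Because these genes moved together, the 250 bases before the transcript start of 3 of them were searched on both strands for the CArG box, the site bound by SRF, and for GGAATG, the core of the site bound by the YAP and TAZ partner TEAD. Capitals mark a CArG box with at most 1 G or C in its A and T core, and GGAATG. The marked matches do not overlap one another. Sequences are from RefSeq, GRCm38.p6.
Acta2: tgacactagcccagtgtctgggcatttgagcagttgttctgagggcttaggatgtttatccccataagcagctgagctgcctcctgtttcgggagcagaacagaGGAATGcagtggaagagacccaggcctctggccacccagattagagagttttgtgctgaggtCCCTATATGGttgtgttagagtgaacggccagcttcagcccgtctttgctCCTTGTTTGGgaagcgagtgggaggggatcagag
Myl9: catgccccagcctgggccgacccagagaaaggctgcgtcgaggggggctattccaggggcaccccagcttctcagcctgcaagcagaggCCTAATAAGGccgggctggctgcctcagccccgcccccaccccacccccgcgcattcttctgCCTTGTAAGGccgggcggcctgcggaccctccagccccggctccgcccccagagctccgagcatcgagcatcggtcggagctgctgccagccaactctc
Vcl: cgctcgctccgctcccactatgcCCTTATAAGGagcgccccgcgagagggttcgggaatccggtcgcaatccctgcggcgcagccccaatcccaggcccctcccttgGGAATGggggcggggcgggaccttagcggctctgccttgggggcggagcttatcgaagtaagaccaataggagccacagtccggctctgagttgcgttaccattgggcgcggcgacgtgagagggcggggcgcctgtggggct

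The Acta2 window is chr19:34255374-34255623 on the minus strand, the Myl9 window chr2:156775214-156775463 and the Vcl window chr14:20929148-20929397, both on the plus strand. Counted back from the start, the Acta2 matches lie at -84 to -75 and -34 to -25 for CArG and -146 to -141 for GGAATG. A CArG box with at most 1 G or C in the core was found in 8 of 30 contractile genes with a promoter entry (26.7%) and in 9.78% of 27025 genes. GGAATG was found in 13 of the 30 (43.3%) and in 14.4% of genes. The 3 promoters were chosen after the matches and the changes had been seen, and a match is a description of letters, not of binding.

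Genes that make and mature collagen rose with Cav1 reduced. Of 10 fibrillar collagens tested 7 rose and none fell, against 9 that rose with the control siRNA, and the median was 3.81 (3.65 with the control siRNA). With genes below background at their bound it was 2.93, and over the scalings it ran from 2.04 to 4.07. Taken gene by gene, the median difference from the control siRNA was -0.09, with 6 of 10 genes lower, beside 56.8% of all genes. Col1a1, a chain of type I collagen, read 0.77, 1.78 and 0.43 in quiescent cells and 7.16, 6.91 and 7.09 with the Cav1 siRNA, a rise of 6.06 (SE 0.30). Its partner chain Col1a2 rose by 5.29 and the type III chain Col3a1 by 3.46, and other probes ranged from 5.06 to 6.92 for Col1a1, 2.19 to 8.27 for Col1a2 and gave 6.52 and 7.07 for Col3a1. Col5a2, a chain of the type V collagen that nucleates fibrils, rose by 7.17. The members not called were Col5a3 (-0.39), Col27a1 (0.19) and Col11a2 (0.58); the last of these and Col27a1 were called higher with the control siRNA, at 1.02 and 0.51, and their direct differences had unadjusted limma p of 0.16 and 0.14. Among 30 genes of collagen processing 28 rose and 2 fell, the same calls as with the control siRNA. Plod2, a lysyl hydroxylase, rose by 7.54 with 1 of 3 quiescent arrays above background, and Serpinh1, the collagen chaperone, by 4.07. Plod1, another lysyl hydroxylase, fell by 2.12.

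Other matrix genes were more mixed. Of 18 other collagens 13 rose and 3 fell, and Col13a1, a transmembrane collagen, fell by a size on which its probes disagreed, from -10.26 to -1.10. Of 31 matrix proteases and inhibitors 22 rose and 5 fell, and the gelatinase Mmp2 rose by 5.80. Mmp12, the macrophage metalloelastase, fell by 1.86 and was called here but not with the control siRNA, a call made under 7 alternatives. Of 39 glycoproteins and proteoglycans 24 rose and 9 fell. Probes for versican (Vcan) gave rises of 8.62, 5.10 and 2.23. Elastin (Eln) fell by 1.61, and with slide as a block it was at -0.66 and not called. Of 30 integrins and focal adhesion genes 15 rose and 6 fell, with Itga11, a collagen receptor subunit, higher by 8.26 on its brightest probe and 1.69 on another, and Itga8, a subunit of quiescent stellate cells, at least 152-fold lower.

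Genes of cell division were higher in nearly the whole list. Of 30 mitosis genes 29 rose and 1 fell, with a median of 3.75 (3.96 with the control siRNA). The kinesin Kif20a rose by 5.79, the phosphatase Cdc25c by 5.14 and the kinase Cdk1 by 4.57, while Pttg1 (securin) fell by 2.23. Mki67, the proliferation antigen, read 0.23, 0.86 and -0.32 in quiescent cells and 2.96, 2.90 and 3.04 with the Cav1 siRNA, overlapping the control siRNA arrays at 2.98, 2.86 and 3.00. Its difference from the control siRNA was 0.02 (95% interval -0.57 to 0.60). Of 27 replication genes 25 rose, 1 fell and Tk1 did not pass. Of the mitosis genes, 26 of 30 were lower than with the control siRNA, by a list median of -0.15, none with an unadjusted p under 0.05, beside 56.8% of all genes lower and a median of -0.04. With median scaling 19 of the 30 were lower, beside 8747 of 23965 genes, and the list median ran from -0.17 to -0.04 over the scalings. Among 24 cyclin-dependent kinase inhibitors and p53 targets 12 rose and 4 fell. Cdkn2a rose by 7.65, and Bax, a pro-apoptotic p53 target, was called higher with the control siRNA (1.25) and not with the Cav1 siRNA (0.31), with a direct unadjusted limma p of 0.015. Its Cav1 siRNA arrays read 3.53, 2.10 and 3.04, and without the second of them Bax was at 0.70 and called.

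**Figure D4:**
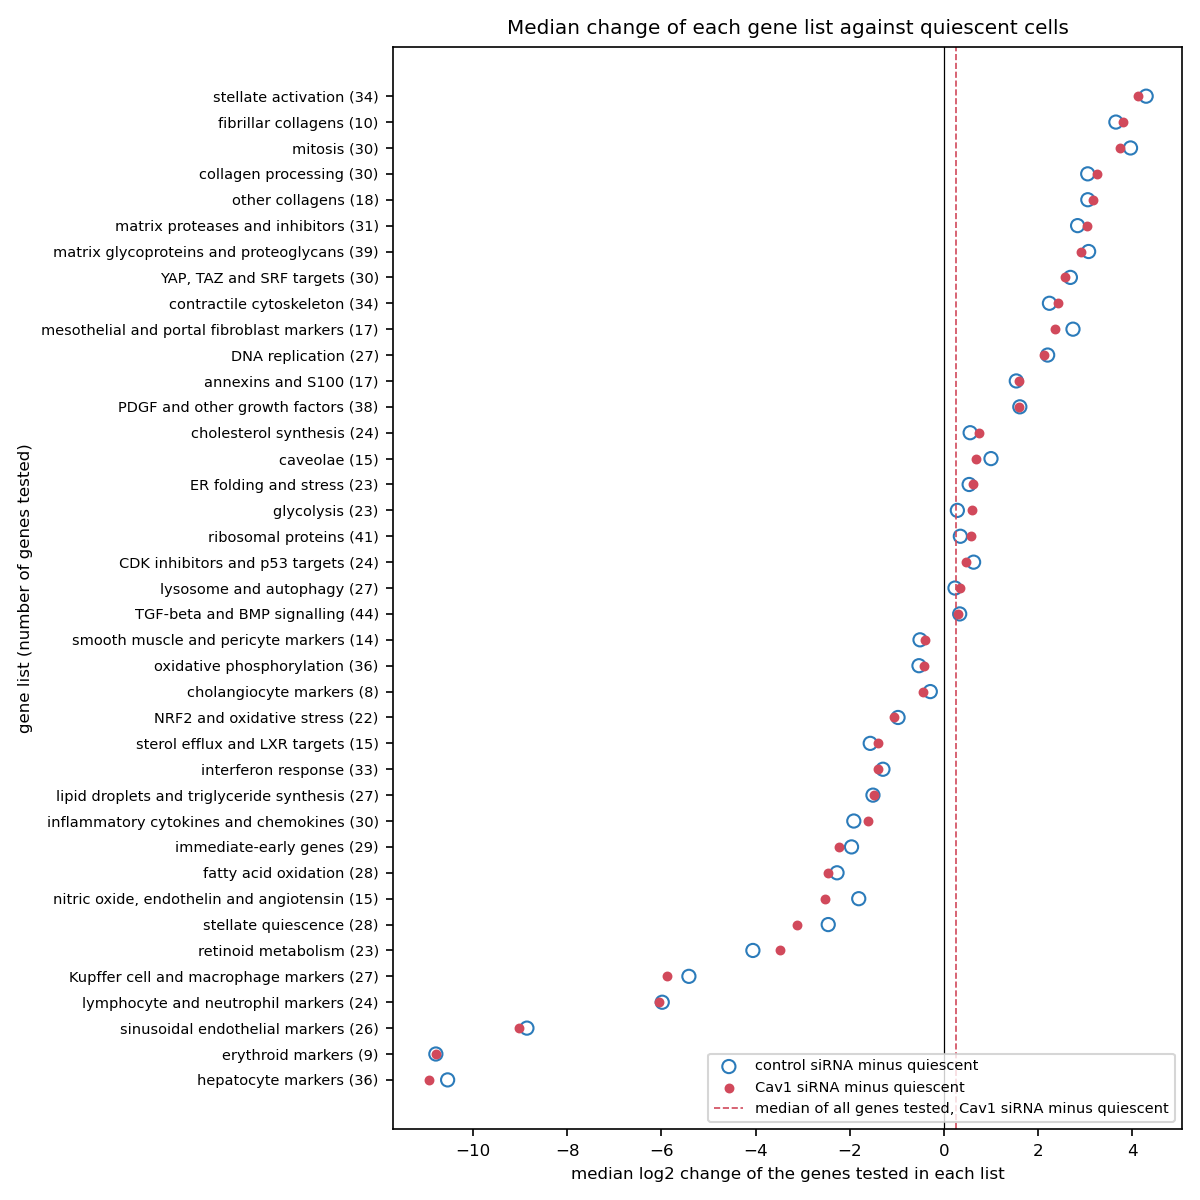
Median log2 change against quiescent cells (horizontal axis) of the genes tested in 39 lists (vertical axis, number of genes in brackets), with the Cav1 siRNA (filled points) and the control siRNA (open circles), which share the quiescent arrays. The filled points run from -10.93 for hepatocyte markers to 4.13 for stellate activation, and the dashed line at 0.27 is the median of all genes.

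The vitamin A and quiescence programme stayed low. Of 23 retinoid genes 19 fell and 2 rose, with a median of -3.48, against -4.06 with the control siRNA. With dim genes at their bound the median was -3.29, and over the scalings it reached -1.75. Taken gene by gene, the median difference from the control siRNA was -0.11, opposite in direction to these list medians. In this list 16 of 23 genes were lower than with the control siRNA, beside 56.8% of all genes. Lrat was not well above background on any Cav1 siRNA array and was at least 94.2-fold lower than in quiescent cells. Rarg, a retinoic acid receptor, rose by 0.67 (a call made in 10 of 23 alternatives), and the retinol uptake receptor Stra6 rose by 1.30 (limma adjusted p = 0.0064), against 0.79 and no call with the control siRNA. The Stra6 call was lost with slide as a block and with normexp and the 75th percentile, where it was at 0.14. Rbp4 and Adh1, the lowest members, are also hepatocyte genes. Of 28 stellate quiescence genes 19 fell and 3 rose, with a median of -3.11, against -2.46 with the control siRNA. With dim genes at their bound the median was -2.12, and over the scalings it reached -1.56. Taken gene by gene, the median difference from the control siRNA was -0.18, with 22 of 28 genes lower. With median scaling 16 of the 28 were lower, beside 8747 of 23965 genes. Hgf, the hepatocyte growth factor, read -1.05, -0.51 and -0.27 in quiescent cells and -2.15, -2.21 and -2.35 with the Cav1 siRNA, which is no overlap and a fall of 1.62 (SE 0.20). The members that rose were Wt1 (6.96), Gata6 (3.78) and Nt5e (0.95, called in 15 of 23 alternatives). Pparg, a nuclear receptor of the quiescent cell, did not pass at -0.21 (SE 0.29). Reln probes disagreed: the brightest gave -0.41 and no call, and the others -10.14 and -3.70. Des was not tested, since no probe passed the filter on dim signal, and Gfap likewise.

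Fatty acid oxidation genes were mostly lower than in quiescent cells, as were hepatocyte markers. Of 28 fatty acid oxidation genes 26 fell and none rose, with a median of -2.46 against -2.27 with the control siRNA. Of 36 oxidative phosphorylation genes 17 fell and none rose, 19 having fallen with the control siRNA. Of 27 lipid droplet and triglyceride genes 16 fell and 5 rose, with the droplet coat gene Plin2 at -2.79. Cholesterol synthesis genes went the other way. Of 24 tested 15 rose and 5 fell, against 11 and 6 with the control siRNA. Sqle (4.83), Cyp51 (3.52) and Msmo1 (2.45), which act late in the pathway, led the list. Fdft1, Nsdhl, Ebp and Hmgcs1 were called higher here and not with the control siRNA. With slide as a block these 4 calls were lost (limma adjusted p from 0.189 to 0.555), and Hmgcs1 was called in 8 and Fdft1 in 14 of 23 alternatives. The list's median difference from the control siRNA was 0.21, 19 of 24 genes being higher, and it ran from 0.18 to 0.32 over the scalings and was 0.24 within slide 2. The median of all genes was -0.04 and reached 0.08 over the scalings. Of the list 5 genes were lower, or 1 with median scaling, beside 13605 and 8747 of 23965 genes. Nsdhl had the smallest unadjusted p of the list (0.024, adjusted 0.88).

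Of 14 caveolar genes tested besides Cav1, 8 rose, 3 fell and 3 were not called with the Cav1 siRNA, and 9 rose and 3 fell with the control siRNA. Cavin1, the coat protein needed for caveolae, read 2.37, 2.97 and 2.18 in quiescent cells, 6.71, 6.50 and 6.49 with the control siRNA and 6.42, 6.39 and 6.34 with the Cav1 siRNA. The Cav1 siRNA arrays lay below the control siRNA arrays by 0.18 (95% interval -0.64 to 0.28). Cavin3 rose by 6.25 and Ehd2, the ATPase at the caveolar neck, by 5.54. Ehd3, a relative of Ehd2, changed by -6.03, beside -5.57 with the control siRNA. The direct difference for Ehd3 was -0.46 (95% interval -0.81 to -0.10), with no call. Cav2, which pairs with caveolin-1 in caveolae, read 1.96, 2.68 and 1.92, then 2.35, 2.55 and 2.62, then 2.83, 2.65 and 2.63 over quiescent, control and Cav1 siRNA arrays, and did not pass at 0.52 (limma adjusted p = 0.057), though it did under 7 alternatives. Cavin2 did not pass (0.19). Cav3, the caveolin of muscle, gave a signal well above background in 0 quiescent, 3 control siRNA and 0 Cav1 siRNA arrays. It was called higher than quiescent cells with the control siRNA and not with the Cav1 siRNA, and the direct unadjusted p was 0.0059.

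Among signalling genes, ligands and receptors of TGF-beta split. Tgfb3 rose by 6.53 and Tgfb2 by 5.33, while Tgfb1, the isoform best known in fibrosis, read 1.03, 0.95 and 0.22 in quiescent cells and -0.72, -0.43 and -0.59 with the Cav1 siRNA, a change of -1.32 (SE 0.22). The receptor Tgfbr1 rose by 1.72 and the signal transducer Smad3 by 1.46, Tgfbr2 did not pass (0.23), and Bmp2 was at least 1221-fold lower. In all 22 of 44 genes of this list rose and 14 fell. Of 38 PDGF and other growth factor genes 22 rose and 13 fell, with Fgf7 at least 169-fold higher and Pdgfra higher by 4.19. Immediate-early genes were mostly lower than in quiescent cells: 22 of 29 fell and 2 rose, among them Fosb (-8.59) and Fos (-5.11). Of 33 interferon genes 21 fell and 1 rose, and of 30 cytokines and chemokines 18 fell and 11 rose, with Il1b at least 678-fold lower by its brightest probe and Cxcl12 higher by 2.71. These falls ran beside falls of 25 of 27 Kupffer cell and macrophage markers and 24 of 24 lymphocyte and neutrophil markers.

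Of 36 hepatocyte markers 36 fell, as did 26 of 26 sinusoidal endothelial and 9 of 9 erythroid markers. The largest falls measured in both groups were those of Serpina1c (-13.66), Serpina1e (-12.96), Serpina1b (-12.93), Mup3 (-12.63), Urah (-12.56), Hba-a2 (-12.40), Apoc1 (-12.30) and Gc (-12.25), all hepatocyte genes but the globin. The Serpina1 and Mup genes are near-identical copies, whose probes may share signal. Ribosomal protein genes showed 24 of 41 higher and none lower, with a median of 0.58, but this median ran from 0.16 to 0.84 over the scalings.

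The direct comparison of the 3 Cav1 siRNA arrays with the 3 control siRNA arrays gave no gene at a limma adjusted p under 0.05 (0% of 23965 genes), and 1189 at an unadjusted p under 0.05. A number close to 1189 is what that unadjusted threshold would pass if no gene differed and the error were well estimated. The pooled spread overstates the error between the activated groups, so the count cannot show that no gene differed. The count was 3242 with the 6 activated arrays alone and 3336 within slide 2. Over the settings it ran from 746 without control siRNA replicate 3 to 4808 with array weights. The smallest adjusted p was 0.097. The arrays of these groups did not overlap at 5411 genes (22.6%), the share against which single genes below are read. The count of calls depended on the setting, and the reason was not tested. A fit of the 6 activated arrays alone called 5 genes (Cav1, Tesc, Nprl3, Hsd17b4 and an unnamed transcript), and array weights called 656. Within slide 2 none passed. For 18437 genes (76.9%) the 95% interval of the difference lay within 2-fold, so larger differences remain possible at the others. Among the activation calls of at least 2-fold, 8109 (70.6%) had such an interval, and the median absolute difference was 0.17. Of the 1189 genes 1061 were lower (4.43% of genes tested) and 128 higher (0.534%) with the Cav1 siRNA. This split depended on the setting: it was 541 lower and 221 higher with median scaling, 787 and 337 with normexp and quantiles, 2153 and 1183 within slide 2, and 2405 and 837 with the 6 arrays alone. Genes of both directions were dim. Their median control siRNA level was -3.56 for the lower and -4.04 for the higher ones, beside -1.08 over all genes, and 47.6% and 49.2% were below background on at least 1 array, beside 30% of all genes.

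Besides Cav1, a small set of genes lay furthest from the control siRNA for its error. Igfbp5, a secreted IGF binding protein, read 0.74, -0.09 and 0.33 in quiescent cells, -0.65, -1.11 and -1.35 with the control siRNA and -3.04, -2.95 and -3.12 with the Cav1 siRNA. The groups did not overlap, and the gene lay at 25.1% of the control siRNA level (95% interval 17.1 to 36.7). It fell against quiescent cells in both comparisons, by 3.36 here and by 1.36 with the control siRNA. Tesc, a calcium-binding protein, read 0.94, 0.17 and 0.17, then -0.96, -1.02 and -1.29, then -2.83, -3.15 and -3.002. It fell by 3.42 here and by 1.51 with the control siRNA, and was at 26.7% of the control siRNA level. Slc7a8, an amino acid transporter, was at 30.7%, with a change from quiescence of -5.70 here and -3.995 with the control siRNA. Ndufa4l2 was below background on the Cav1 siRNA arrays and at least 1.78-fold lower than with the control siRNA. In each of these 4 genes the fall from quiescence was larger with Cav1 reduced, and no adjusted p passed in the fit of 9 arrays. Over 24 alternatives for each of Tesc, Igfbp5 and Slc7a8 the direct difference passed in 6, 4 and 2, and for Ndufa4l2 in 1 of 23.

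Amhr2 and Nprl3 were called in opposite directions. Amhr2, the receptor for anti-Müllerian hormone, read -3.13, -3.20 and -2.83 in quiescent cells, -2.11, -2.43 and -2.46 with the control siRNA, and -3.59, -3.66 and -3.74 with the Cav1 siRNA. It was 0.72 above quiescent cells with the control siRNA and -0.61 with the Cav1 siRNA. Nprl3, a subunit of an inhibitor of mTORC1, read 0.99, 0.81 and 1.12, then 1.55, 1.49 and 1.46, then 0.24, 0.37 and 0.40. Its changes were 0.53 and -0.63. For both genes the 3 groups stood apart with quiescent cells in the middle, and the direct limma adjusted p was 0.097. With slide as a block neither was called against quiescent cells (limma adjusted p = 0.44 for Amhr2 and 0.11 for Nprl3). Median scaling ended both calls too, and quantile normalization, with or without normexp, that of Amhr2.

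In the other direction, Lgals3 (galectin-3) read 4.11, 4.20 and 3.75 in quiescent cells, 1.16, 1.23 and 1.05 with the control siRNA and 1.68, 1.77 and 1.64 with the Cav1 siRNA. It fell by 2.33 against quiescent cells here and by 2.88 with the control siRNA. Taldo1, a pentose phosphate enzyme, read 6.26, 5.98 and 6.17, then 5.04, 4.95 and 4.93, then 5.56, 5.53 and 5.49, and the 3 groups did not overlap. Its call against quiescent cells was lost with median scaling and with slide as a block. The coagulation factor F7 was 1.42 above the control siRNA, where 1 of 3 arrays was above background. These falls from quiescence were smaller with Cav1 reduced, with direct unadjusted limma p of 0.0060 for Lgals3, 0.0021 for Taldo1 and 0.0022 for F7, and none passed adjustment in that fit. Of 24 alternatives, Lgals3 and Taldo1 passed only with array weights.

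**Figure D5:**
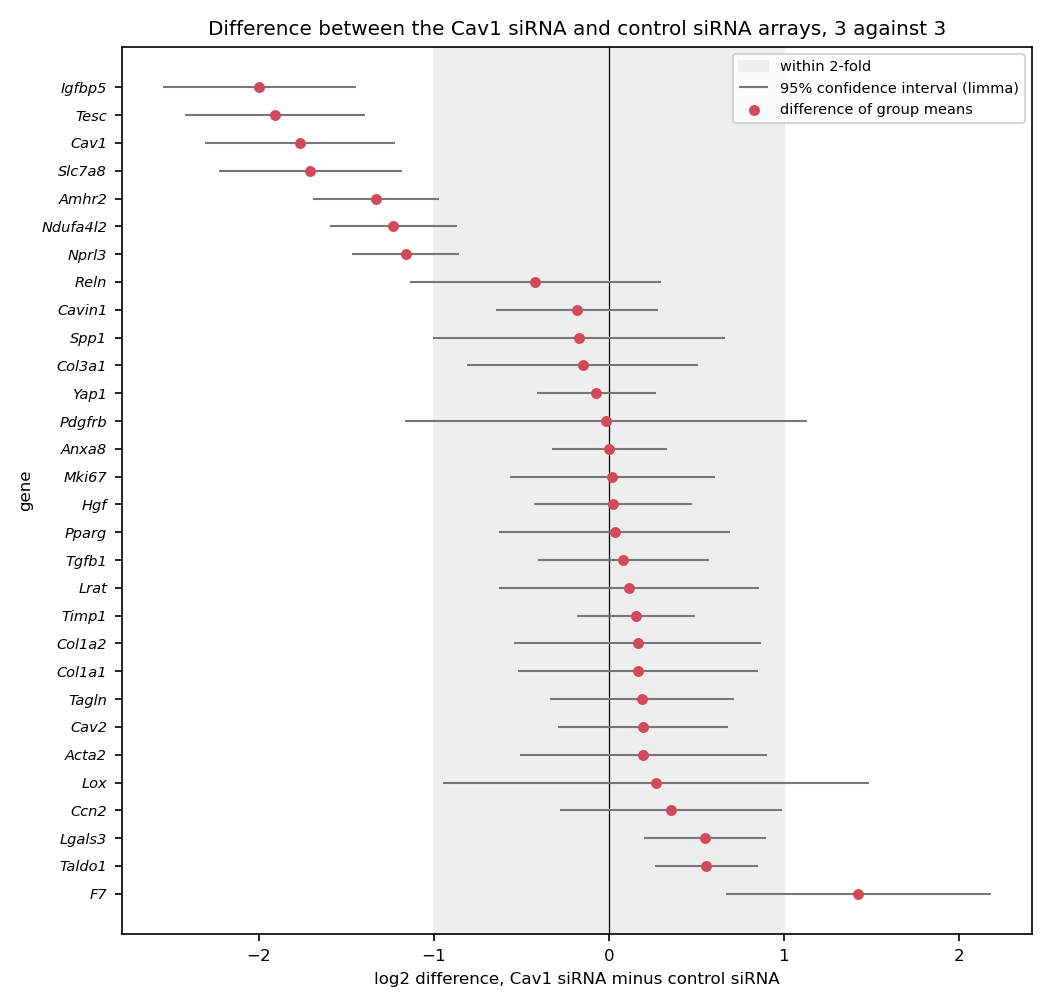
Log2 difference of group means, Cav1 siRNA minus control siRNA (horizontal axis), with 95% confidence intervals from limma for 30 genes, 3 arrays against 3. Igfbp5, Tesc, Cav1 and Slc7a8 have intervals wholly below -1. Most activation and quiescence genes have intervals within 2-fold (grey band), while those of Lox, Pdgfrb, Reln and Spp1 reach beyond it.

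The activation calls that did not remain were mostly small or dim. Their median absolute change with the control siRNA was 0.80 log2, and 1160 of 1200 (96.7%) had the same sign with the Cav1 siRNA. In the direct comparison 205 had an unadjusted limma p under 0.05, beside 903 of all 16328 activation calls. The 1200 genes were selected by their calls on these same arrays, which by itself favours a small direct p. These counts are therefore no test of a response to the Cav1 siRNA. Of the 426 that were at least 2-fold, 354 (83.1%) were below background on at least 1 array, beside 30.8% of all activation calls. The largest were Gm35204, Tmprss7, Ccdc177, Cxcl15 and Krt76, which were called in 1, 7, 2, 5 and 3 of 22 alternatives. Krt76, a keratin, passed the background limit with the control siRNA alone. There it read -4.49, -5.21 and -4.93, at least 2.19-fold above the Cav1 siRNA. Igfbp6, another IGF binding protein, rose by 1.04 with the control siRNA and was at 0.34 and not called with the Cav1 siRNA, a direct difference of -0.70 (95% interval -1.09 to -0.32). The 1082 calls made with the Cav1 siRNA and not with the control siRNA had a median absolute change of 0.68. The largest were Fan1, Agbl4, Vmn1r227, Grifin and Runx2, each below background on at least 1 array of a group. With slide as a block these 5 calls were lost (limma adjusted p from 0.185 to 0.407), and Runx2 was called in 9 of 22 alternatives.

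Of the lists, mesothelial and portal fibroblast markers stood lowest against the control siRNA. These mark the cells of the liver surface and of the portal tract. In the activated arrays 9 of 17 were higher and 8 lower than in quiescent cells, under both siRNAs. Among the lower ones were Krt8 (-9.82 with the Cav1 siRNA), Krt18 (-10.3) and Cdh1 (-4.435). On the quiescent arrays, where hepatocyte markers were also high, Krt8 read 5.03, 3.73 and 4.77 and Krt18 4.70, 4.305 and 4.90. Which cells gave this signal was not tested. Wt1, a mesothelial and stellate transcription factor, read -2.66, -3.13 and -2.93 in quiescent cells, 4.12, 4.21 and 4.17 with the control siRNA and 4.12, 4.06 and 3.996 with the Cav1 siRNA. Upk3b, a mesothelial membrane protein, read -2.35, -3.62 and -3.28, then 0.62, 0.74 and 0.72, then 0.04, 0.21 and 0.12. Msln (mesothelin) read 1.69, 1.76 and 1.59 with the control siRNA and 1.28, 1.26 and 1.31 with the Cav1 siRNA. For Upk3b and Msln the Cav1 siRNA and control siRNA arrays did not overlap, as at 22.6% of all genes, and for Wt1 they did. The list's median difference was -0.51, with 15 of 17 genes lower, beside 13605 of 23965 genes lower (56.8%) and a median of -0.04. At an unadjusted limma p under 0.05 were 6 of the 17, beside 1189 of all 23965 genes. The list median ran from -0.51 to -0.15 over the scalings and was -0.40 within slide 2 with 16 of 17 genes lower. No member passed adjustment in the fit of 9 arrays or within slide 2, and 6 did with array weights: Pi16, Gli1, Podxl, Lrrn4, Gpm6a and Upk3b. With array weights 656 of all 23965 genes passed, 95 of them higher.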

How the data were processed

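RNA of 9 samples (3 quiescent, 3 control siRNA, 3 Cav1 siRNA) had been hybridised to single-colour Agilent arrays and the scans were read with Feature Extraction from Agilent, version 10.7.1.1, as the submitters' processing notes state. The deposited intensity values (processed signal) were background-corrected by the scanner software, per the file headers. A deposited table of the same arrays, with processed signal on a linear scale made by the authors, served as an alternative. Its values were taken to log2 and scaled to the 75th percentile, and they correlated with the scanner's log2 signal at 0.999999 or above. Here log2 intensity minus each array's 75th percentile was used over non-control spots. Probes well above background on the 3 arrays of at least 1 group were kept (36817), and 68 with outlier flags were left out. Each gene was represented by its brightest kept probe. One model over 9 arrays was fitted with limma 3.58.1 (lmFit, eBayes) in R 4.3.3, with Benjamini-Hochberg adjustment and a threshold of 0.05, and was tested on simulated data. With equal spread in the groups the simulated error rate was near nominal, while with each group's own spread comparisons with quiescent cells gave more false calls than nominal. The arrays' number limits precision. Probe names were updated through RefSeq (GRCm38.p6): 32994 matched by accession and 520 by synonym. The members and gene lists were chosen with earlier results of these data known. Named genes were a fixed panel, the largest changes and bounds, the 2 largest changes of each list, genes whose call differed between comparisons and those nearest to a call in the direct comparison; other list members were named after their values were seen. Alternatives changed the background correction, scaling, filter, probe choice, blocks, weights and arrays.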

Additional observations from a re-analysis of the deposited data

Results flagged for a closer look

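Amhr2 and Nprl3 moved in opposite directions from quiescent cells under the 2 siRNAs, with each array of an activated group on its own side of the quiescent mean. The direct difference, Cav1 siRNA minus control siRNA, was -1.33 log2 for Amhr2 and -1.16 for Nprl3. In limma this difference had an adjusted p of 0.097 for both. Over 24 alternatives it passed in 2 for Amhr2 and in 6 for Nprl3. Array weights, which called 656 genes, gave a limma adjusted p of 0.00088 for both. Within slide 2 the limma adjusted p was 0.115 for both.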

How the results depend on the processing

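Calls against quiescent cells numbered 14495 to 16781 when 1 array was left out, and activation changes remaining 13789 to 15650 (88.5% to 95.5% of activation calls). At least 2-fold calls numbered 11127 to 11583, those remaining 10276 to 10743, activation calls 14589 to 16823 and direct calls 0 to 2. Slide as a block gave 10141 calls and 10034 remaining. Requiring signal on 9 arrays, which tests fewer genes, gave 7197 calls of at least 2-fold and 6552 remaining. Within slide 1, with fewer arrays, activation calls numbered 7615. Direct calls, 0 here, were 7 with normexp and the 75th percentile, 5 with normexp and quantiles, 6 with signal on 9 arrays, 5 with 6 arrays, 656 with array weights, 4 with a trended robust prior and 2 without quiescent replicate 1. The cause was not tested. A value called in at least 1 of the settings compared turned its sign with normexp and the 75th percentile for Timp4 (-0.41), Col11a2 (-0.36), Cav3 (-0.49), Dnm3 (-0.14), Rpl37 (-0.12), 2810408B13Rik (-0.37) and Krt76 (-0.47), with quantiles for Gpi1 (-0.078), and with the mean of probes for Rab5b (0.57). Of the other gene values against quiescent cells, 3689 kept direction and side of the threshold, 255 lost the call, 111 gained it, and 11 that were called in neither setting turned their sign. Of 185 called genes followed over the settings, 88 had a value below the reported one by over 1.5 times in at least 1 setting. Replicate numbers did not pair the samples (correlations of deviations -0.114 to 0.173). With the replicate block 15732 genes were called, 14640 remained, 15837 were activation calls and 0 were direct calls. Signal near background limits the low genes.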

Other observations

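Of all genes tested 67.6% were called between Cav1 siRNA and quiescent cells, 40.4% higher and 27.2% lower, and the counts of other lists are given beside these shares as a description. Annexins and S100 calcium-binding proteins were higher in 11 of 17 genes tested and lower in 1, with a median of 1.61 log2. Anxa1 rose by 5.71 and Anxa8 by 9.52. Glycolysis genes were higher in 12 of 23 and lower in 4. Eno2, the neuronal enolase, rose by 5.55 with 2 of 3 quiescent arrays above background, and Aldoc fell by 5.00. Endoplasmic reticulum folding genes were higher in 13 of 23 and lower in 4, with Pdia4, a disulfide isomerase, at 1.98 and Herpud1 at -2.50. Antioxidant genes targeted by NRF2 were higher in 7 of 22 and lower in 12, with catalase (Cat) at -4.17. Nitric oxide, endothelin and angiotensin genes were higher in 3 of 15 and lower in 9. Agt, angiotensinogen, fell by 7.42 here and by 6.63 with the control siRNA, a direct difference of -0.78 with an unadjusted limma p of 0.0010.

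Endocytic genes outside caveolae showed no common direction. Of 22 clathrin, dynamin and flotillin genes 7 rose and 6 fell, and the sign of the median depended on the scaling. Dnm1, a dynamin, rose by 7.13 and read 3.66, 4.01 and 3.97 with the Cav1 siRNA against 4.05, 4.16 and 4.05 with the control siRNA. Of 27 lysosome and autophagy genes 12 rose and 3 fell. Ctss, a protease of macrophages, fell by 5.52 beside the Kupffer cell markers. Of 15 sterol efflux genes 10 fell and 4 rose, with Apoe at -10.72.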
